A study of Zea mays with 318 samples.

Results

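The inbred lines compared here came from a maize association panel and were the 46 lines whose names begin with GEMS and all those whose names begin with none of the prefixes CIMBL, CML and GEMS, called unprefixed lines. The members were chosen from the line names alone, which are the column names of the expression tables, and both groups together held 180 of the 318 lines of the panel, 46 of them GEMS and the rest unprefixed. The names do not say which lines are temperate, and the labels do not spell out what GEMS stands for, so neither group can be called by its origin. All libraries were labelled as kernels at 5 days after pollination (DAP). For the lines of its mapping table, the study that reported these data describes one field trial in Hainan with self-pollinated ears. Kernels of such a line from different field blocks went into a single RNA sample. Outside that table were 6 GEMS and 13 unprefixed lines, and the study does not state how these were grown or pooled. They were kept in the main comparison, and the closing section gives the number of genes called without them. Each line of both groups had 1 library. The lines were therefore the replicates of each group, and p-values measured the spread between lines, which are related by descent to an extent that was not modelled.

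A maize kernel at this stage is a mixed organ. The endosperm, fed through the maternal tissues around it, passes from a syncytium to a cellular tissue, while nucellus and pericarp still make up much of the kernel and the embryo is very small. RNA of the whole kernel is a sum over these tissues, so fewer cells of a type and less RNA per cell cannot be told apart. Reads were mapped to one reference line, B73, so a diverged or missing copy of a gene and a lower expression level cannot be told apart either.

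Sequencing depth overlapped between the groups. Library totals ran from 6693273 to 28333938 counts in GEMS lines, with a median of 14169020, and from 7216430 to 29629212 in unprefixed lines, with a median of 13603610. None of 4 library measures (total count, genes with a count, share of counts in the 10 highest genes, and correlation of a line with the mean of all lines) passed the test, each with an adjusted p of 0.22 by a two-sided permutation test. Some lines were close to one line of the other group. Over the 1000 most variable genes the correlation between 2 of these lines had a median of 0.53, but it was 0.954 for GEMS19 and ZHENG29, 0.945 for GEMS60 and 4019, and 0.929 for GEMS9 and B111. Lines 177 and ZHENG58, both unprefixed, reached 0.991. Each pair of libraries differed by more than counting error alone. Separate libraries of the same genotype could do so too, so this cannot show that close lines are distinct. Each line was counted once all the same. Without the 3 pairs that cross the groups, the comparison below gave 853 genes in place of 897.

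Expression levels were given as FPKM, counted fragments scaled to gene length and library size, and a gene was tested when its median was above 1 FPKM in either group. Of 21112 genes tested on log2(FPKM + 1), 897 differed between GEMS and unprefixed lines (4.25% of the genes, limma, adjusted p below 0.05). GEMS lines had the higher mean for 517 of them (2.45%) and the lower mean for 380 (1.8%). DESeq2 on the counts gave the opposite split, with 379 genes higher and 464 lower. Across all genes tested the median difference was 0.0041 on the log2 scale.

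Most of these differences were small. The median absolute difference of the genes called was 0.44, a 1.36-fold change, and 603 of them lay under 1.5-fold. For the median gene called, 67% of all pairs of a GEMS and an unprefixed line differed in the direction of the group means, and for no gene was this above 79.3%. The groups overlapped for all 897 genes. Only 69 genes differed at least 2-fold on the log2(FPKM + 1) scale (0.327% of the genes tested), 48 of them higher (0.227%) and 21 lower (0.0995%) in GEMS lines. Of these, 3 (HRGP, GRMZM2G169927 and GRMZM2G134711) were above 1 FPKM in every line of both groups. edgeR on the counts called 20 of these 69 genes at any fold, and DESeq2 called 23.

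**Figure D1:**
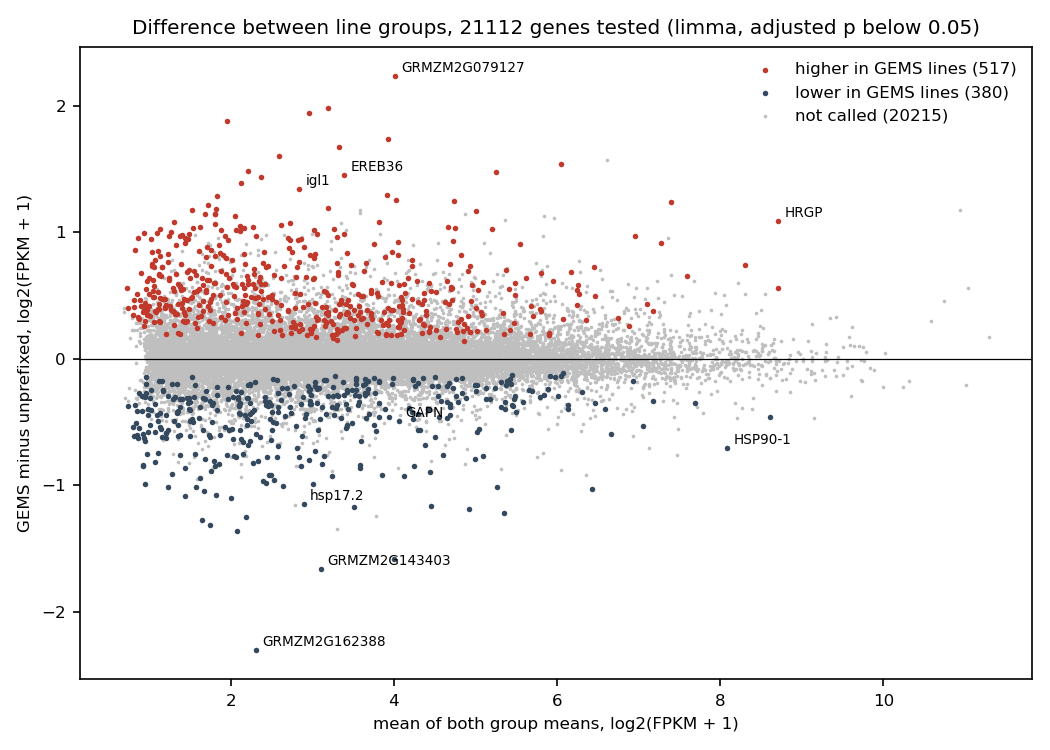
Difference of the group means (GEMS minus unprefixed, log2(FPKM + 1), vertical axis) against the mean of both group means (horizontal axis) for every gene tested, with the 517 genes higher in GEMS lines in red and the 380 lower in dark blue. Most called genes lie within 1 unit of the zero line, and the largest differences belong to genes of low to middle level.

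The genes with the largest differences were expressed in some lines and almost silent in others of the same group. In the values that follow, the lowest, median and highest expression level of a group are given in that order. GRMZM2G079127 had 0.0438, 77.7 and 267 FPKM in GEMS lines, against 0, 2.46 and 313 FPKM in unprefixed lines, and 89.1% of GEMS lines and 67.2% of unprefixed lines were at 1 FPKM or above. Its mean was higher in GEMS lines by 2.24 ± 0.43 (SE, adjusted p = 4.15e-04) on the log2 scale, with an adjusted p of 0.0757 by edgeR. GRMZM5G877929 had 0, 57.9 and 174.2 FPKM in GEMS lines, against 0, 0 and 181.1 FPKM in unprefixed lines. At least 1 FPKM was seen in 67.4% of GEMS lines and 36.6% of unprefixed lines, and the difference was 1.98 ± 0.50 (SE, adjusted p = 0.00771). GRMZM2G154278 had 0, 44.8 and 109.4 FPKM in GEMS lines, against 0, 0.2 and 162.3 FPKM in unprefixed lines, with a difference of 1.94 ± 0.43 (SE, adjusted p = 0.00208). GRMZM5G861451 had 0, 82.3 and 247.1 FPKM in GEMS lines, against 0.0463, 2.41 and 247.2 FPKM in unprefixed lines, with a difference of 1.74 ± 0.46 (SE, adjusted p = 0.0119). In both groups the levels of these genes ran between silence and high expression. None of these last 3 genes was called by edgeR, with adjusted p of 0.36 for GRMZM5G877929, 0.191 for GRMZM2G154278 and 0.149 for GRMZM5G861451, and none by DESeq2. GRMZM2G165987 had 0, 1.08 and 141.5 FPKM in GEMS lines, against 0, 0.251 and 75.5 FPKM in unprefixed lines, with a difference of 1.88 ± 0.35 (SE, adjusted p = 1.97e-04), and was called by both count tests.

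On the other side, GRMZM2G162388 had 0, 0.0825 and 872 FPKM in GEMS lines, against 0, 6.88 and 1365.6 FPKM in unprefixed lines. The gene reached 1 FPKM in 26.1% of GEMS lines and 70.9% of unprefixed lines, and its mean was lower in GEMS lines, with a difference of -2.30 ± 0.50 (SE, adjusted p = 0.0016). GRMZM2G143403 had 0, 0.315 and 103.9 FPKM in GEMS lines, against 0, 46.2 and 172.9 FPKM in unprefixed lines, and its difference was -1.66 ± 0.47 (SE, adjusted p = 0.0228). For both genes the ranges of the groups overlapped, and most GEMS lines were below 1 FPKM. GRMZM2G092968 had 0, 14.1 and 98.7 FPKM in GEMS lines, against 0.142, 28.9 and 136.6 FPKM in unprefixed lines. Here 71.7% of GEMS lines but 97.8% of unprefixed lines were at 1 FPKM or above, and the difference was -1.59 ± 0.25 (SE, adjusted p = 6.26e-06). GRMZM2G478779 had 0, 0.289 and 77.8 FPKM in GEMS lines, against 0, 12.2 and 122.4 FPKM in unprefixed lines, with a difference of -1.36 ± 0.41 (SE, adjusted p = 0.0345). GRMZM2G042782 had 0, 0 and 24.1 FPKM in GEMS lines, against 0, 7.14 and 37.4 FPKM in unprefixed lines, with a difference of -1.32 ± 0.31 (SE, adjusted p = 0.00418). Of these 5 genes, edgeR called only GRMZM2G092968. The adjusted p by edgeR was 0.0611 for GRMZM2G162388, 0.152 for GRMZM2G143403, 0.279 for GRMZM2G478779 and 0.094 for GRMZM2G042782. GRMZM2G478779 also failed the rank-sum test, with an adjusted p of 0.14.

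The largest difference among genes with a name was that of a transcription factor gene. EREB36 (GRMZM2G069082), an AP2/ERF transcription factor, had 0, 25.7 and 74.6 FPKM in GEMS lines, against 0, 4.54 and 104.97 FPKM in unprefixed lines. Its difference was 1.45 ± 0.32 (SE, adjusted p = 0.00197), and 36 of 46 GEMS lines lay above the median of the unprefixed lines. The adjusted p was 0.0787 by edgeR and 0.0616 by DESeq2. TIFY1 (GRMZM2G343157), which carries the TIFY domain found in the repressors of the jasmonate response, had 4.1, 36.8 and 164.7 FPKM in GEMS lines, against 0, 21.9 and 98.6 FPKM in unprefixed lines. Every GEMS line and 94% of unprefixed lines reached 1 FPKM, and the difference was 1.04 ± 0.26 (SE, adjusted p = 0.00701). Of 21 TIFY genes tested, whose median difference was 0.045, limma called TIFY1 alone, 4.76% of the list beside 4.25% of all genes, and DESeq2 called 2. THX31 (GRMZM2G427087), a trihelix factor, had 4.82, 18.3 and 94.7 FPKM in GEMS lines, against 3.48, 13.2 and 66.5 FPKM in unprefixed lines, with a difference of 0.64 ± 0.14 (SE, adjusted p = 0.00208), although 2 RefSeq genes carry this identifier. 

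Auxin acts through AUX/IAA repressors, which are broken down when the hormone is bound, and through the ARF factors that these repressors hold back. Of 36 genes for auxin synthesis, transport and response that were tested, 4 were higher and 0 lower in GEMS lines by limma, against 2.45% higher and 1.8% lower among all genes. The list median was 0.14, beside 0.0041 for all genes. edgeR called 3 of the 36 genes and DESeq2 4, beside 612 and 843 of all 21112 genes tested. Not all of those auxin genes were among the 4 called by limma. AUX32 (GRMZM2G152796), of the AUX/IAA family, had 0.0471, 7.49 and 59 FPKM in GEMS lines, against 0, 1.81 and 40.5 FPKM in unprefixed lines. Its difference was 1.04 ± 0.22 (SE, adjusted p = 0.00136). The auxin-binding protein gene abp4 (GRMZM2G064371) had 0, 31.3 and 55.5 FPKM in GEMS lines, against 0.0579, 16.7 and 58.6 FPKM in unprefixed lines, and 93.5% of GEMS lines and 88.8% of unprefixed lines were at 1 FPKM or above. The highest levels of both groups were close to each other, and the difference was 0.92 ± 0.27 (SE, adjusted p = 0.0314). The call for abp4 did not hold by edgeR (adjusted p = 0.11) or by DESeq2 (adjusted p = 0.0866). AUX15 (GRMZM2G079200) had 0.762, 4.2 and 14.4 FPKM in GEMS lines, against 0.14, 2.78 and 13.1 FPKM in unprefixed lines, with a difference of 0.46 ± 0.14 (SE, adjusted p = 0.0432), which edgeR did not call (adjusted p = 0.208). ARF19 (GRMZM2G013663), an auxin response factor, had 0.447, 1.75 and 8.92 FPKM in GEMS lines, against 0.133, 1.17 and 5.87 FPKM in unprefixed lines, and its difference was 0.37 ± 0.10 (SE, adjusted p = 0.0208). Among members that did not pass, AUX35 (GRMZM2G167794) stood at -0.48 and AUX3 (GRMZM2G004696) at 0.38.

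Plant walls are built from cellulose, matrix polysaccharides and structural proteins rich in hydroxyproline, and microtubules guide where cellulose is laid down. Of 30 wall genes tested, 3 were higher and 0 lower in GEMS lines, beside 2.45% higher and 1.8% lower among all genes tested. The list median was 0.11, edgeR called 1 of these genes and DESeq2 3. HRGP (GRMZM2G168651), a hydroxyproline-rich wall glycoprotein and the most abundant of them, had 105.7, 637.9 and 3169.7 FPKM in GEMS lines, against 3.5, 263.6 and 3207.6 FPKM in unprefixed lines. The difference was 1.09 ± 0.22 (SE, adjusted p = 8.45e-04), and 33 of 46 GEMS lines were above the unprefixed median. Bk2L6 (GRMZM2G167520), a relative of the stalk-strength gene brittle stalk 2, had 0, 8.93 and 73.7 FPKM in GEMS lines, against 0, 3.5 and 83.4 FPKM in unprefixed lines, with a difference of 0.95 ± 0.28 (SE, adjusted p = 0.0315). The proline-rich protein gene hypro1 (GRMZM2G057779) had 0.406, 4.76 and 22.7 FPKM in GEMS lines, against 0.223, 2.43 and 30.7 FPKM in unprefixed lines, with a difference of 0.59 ± 0.18 (SE, adjusted p = 0.0381). edgeR called HRGP but neither Bk2L6 (adjusted p = 0.0637) nor hypro1 (adjusted p = 0.0595). Those not called included the cellulose synthase gene cesa10 (GRMZM2G445905), at -0.05, and CslF6-1 (GRMZM2G110145), which serves mixed-linkage glucan synthesis, at 0.32.

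Of 20 tubulin, actin and profilin genes, a list added after values had been seen, 2 were higher in GEMS lines, beside 2.45% of all genes tested, and both encode beta-tubulins. The tub3 gene (GRMZM2G108766) had 10.7, 38.8 and 121.8 FPKM in GEMS lines, against 5.43, 20.6 and 108.9 FPKM in unprefixed lines, with a difference of 0.69 ± 0.15 (SE, adjusted p = 0.00123). The tub4 gene (GRMZM2G066191) had 15.2, 66.6 and 128.8 FPKM in GEMS lines, against 10.9, 45 and 133.04 FPKM in unprefixed lines, with a difference of 0.42 ± 0.12 (SE, adjusted p = 0.0204). The other 18 genes tested were not called, and the list median was -0.013. Each alternative in the closing section called tub3 and tub4 in the same direction.

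Indole-3-glycerol phosphate lyase, the product of igl1 (GRMZM2G046191), releases the free indole that maize emits as a volatile, while BX1 makes the indole that enters benzoxazinoid defence compounds. The igl1 gene had 0.0541, 16 and 42.9 FPKM in GEMS lines, against 0, 2.59 and 59.4 FPKM in unprefixed lines. It was at 1 FPKM or above in 82.6% of GEMS lines and 62.7% of unprefixed lines, and the difference was 1.34 ± 0.32 (SE, adjusted p = 0.00446). This was called neither by edgeR (adjusted p = 0.203) nor by DESeq2 (adjusted p = 0.175). Among 11 benzoxazinoid and indole genes tested, it was the one called by limma, 9.09% beside 4.25% of all genes. The list median was -0.077, and bx1 (GRMZM2G085381) stood at -0.56. None of 24 lipoxygenase and jasmonate synthesis genes was called by limma, edgeR or DESeq2, although 3 had an unadjusted p below 0.05 with limma, and the differences ran from -0.29 to 0.66.

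**Figure D2:**
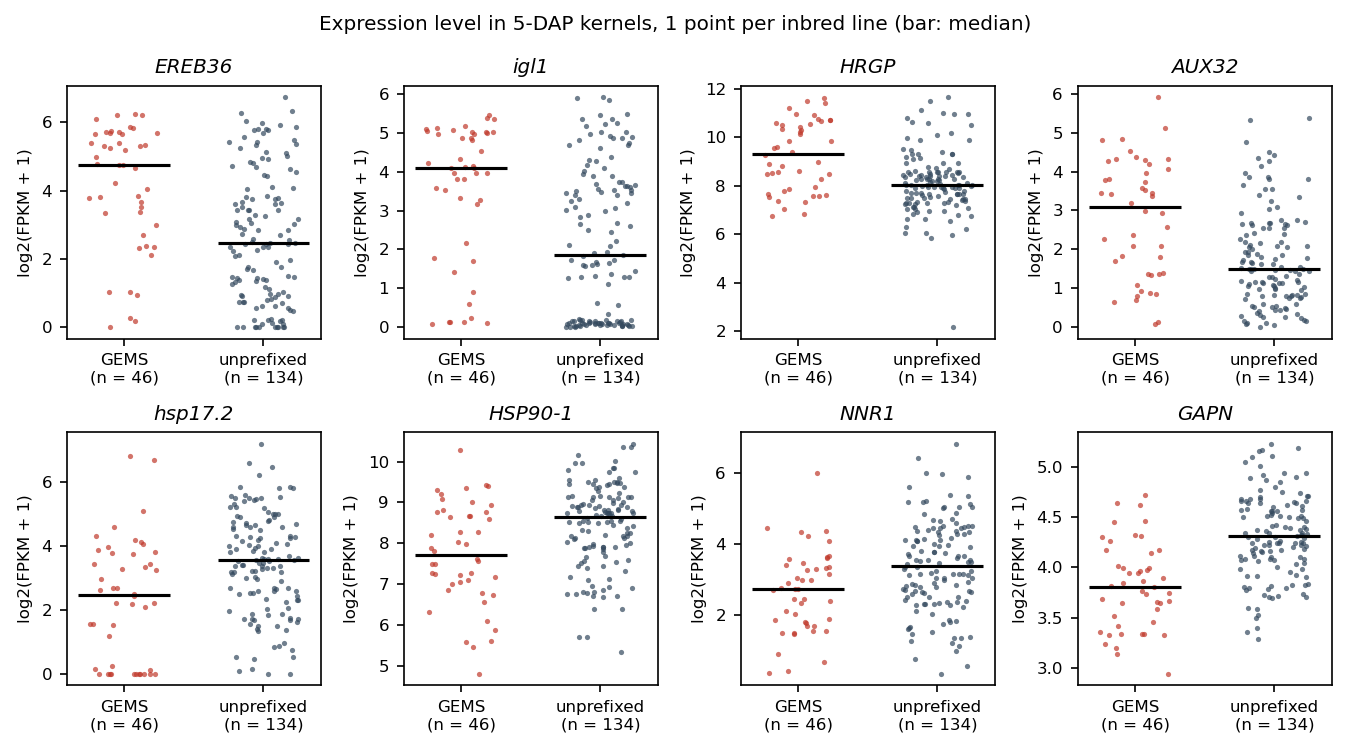
Expression level (log2(FPKM + 1), vertical axes) of 4 genes higher in GEMS lines (upper row) and 4 lower in GEMS lines (lower row), with 1 point for each GEMS line (red, left) and each unprefixed line (dark blue, right) and a bar at the group median. The groups overlap in every panel, and EREB36 and igl1 hold many unprefixed lines near 0.

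Heat shock proteins are chaperones that keep other proteins folded, and many of them are induced by heat. Of 16 heat shock genes tested, 2 were lower and 0 higher in GEMS lines by limma, beside 1.8% lower and 2.45% higher among all genes tested. edgeR called 0 of them and DESeq2 1, 4 had an unadjusted p below 0.05 by limma, and the list median was -0.14. HSP90-1 (GRMZM2G024668), one of the abundant chaperones of the cytosol, had 27.3, 209.5 and 1247.7 FPKM in GEMS lines, against 39.9, 398.6 and 1377.1 FPKM in unprefixed lines. Its difference was -0.71 ± 0.18 (SE, adjusted p = 0.0109), with an adjusted p of 0.0601 by edgeR. The small heat shock protein gene hsp17.2 (GRMZM2G158232) had 0, 4.51 and 113.1 FPKM in GEMS lines, against 0, 10.8 and 146.9 FPKM in unprefixed lines. It was at 1 FPKM or above in 69.6% of GEMS lines and 91.8% of unprefixed lines, and the difference was -1.15 ± 0.28 (SE, adjusted p = 0.00613). Neither edgeR (adjusted p = 0.287) nor DESeq2 (adjusted p = 0.222) called it. Differences of members not called were -0.57 for hsp101 (GRMZM2G360681), -0.035 for HSP90-2 (GRMZM2G012631) and 0.58 for hsp3 (GRMZM6G199466).

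Nitrate is reduced to ammonium and built into glutamine before it reaches other amino acids. Of 13 genes of nitrogen uptake and assimilation tested, a list also added after values had been seen, 3 were lower in GEMS lines and 0 higher, beside 1.8% lower and 2.45% higher among all genes tested. The nitrate reductase gene NNR1 (GRMZM2G568636) had 0.3, 5.67 and 62.6 FPKM in GEMS lines, against 0.288, 9.55 and 111.4 FPKM in unprefixed lines, and its difference was -0.73 ± 0.21 (SE, adjusted p = 0.0272). NAR2.2 (GRMZM2G163494), a partner protein of nitrate transporters, had 0.0323, 1.93 and 22.4 FPKM in GEMS lines, against 0, 3.72 and 87.7 FPKM in unprefixed lines, with a difference of -0.76 ± 0.23 (SE, adjusted p = 0.0391). The cytosolic glutamine synthetase gene gln3 (GRMZM2G046601) had 6.5, 28.9 and 81.4 FPKM in GEMS lines, against 1.67, 43.1 and 134.3 FPKM in unprefixed lines, and its difference was -0.56 ± 0.16 (SE, adjusted p = 0.0267). The ranges of both groups overlapped for all 3 genes. NAR2.2 no longer passed without the 3 pairs of near-identical lines that cross the groups (adjusted p = 0.0655) or without the lines least like the mean of all lines (adjusted p = 0.0526). Over the whole list, 8 of the 13 members had a positive difference and the list median was 0.045. The other glutamine synthetase genes included gln2 (GRMZM2G024104), at 0.045, and Gln1-4 (GRMZM2G036464), at 0.34.

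The smallest p of all genes belonged to GAPN (GRMZM2G035268), a glyceraldehyde-3-phosphate dehydrogenase that makes NADPH without ATP. It had 6.71, 13 and 25.3 FPKM in GEMS lines, against 8.8, 18.8 and 36.5 FPKM in unprefixed lines, was at 1 FPKM or above in every line, and was lower in GEMS lines, with a difference of -0.49 ± 0.071 (SE, adjusted p = 1.59e-06). The median of the unprefixed lines was exceeded by 7 of 46 GEMS lines. The sucrose transporter gene sut1 (GRMZM2G034302) had 1.86, 9.93 and 26.4 FPKM in GEMS lines, against 2.47, 13.2 and 56 FPKM in unprefixed lines, with a difference of -0.47 ± 0.14 (SE, adjusted p = 0.0322), which did not pass without the lines least like the mean of all lines (adjusted p = 0.0564). It was the one gene called among 10 genes for sucrose cleavage and transport, 10% beside 4.25% of all genes.

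Starch synthesis had 1 gene lower and 1 higher among 14 tested, beside 1.8% lower and 2.45% higher among all genes. GBSSIIa (GRMZM2G008263), a granule-bound starch synthase of tissues other than the storage endosperm, had 8.2, 21.6 and 41.5 FPKM in GEMS lines, against 6.59, 30.8 and 62.7 FPKM in unprefixed lines, and its difference was -0.47 ± 0.10 (SE, adjusted p = 0.00206). The starch branching enzyme gene ae1 (GRMZM2G032628), which acts in the endosperm, had 10.6, 33.9 and 111.2 FPKM in GEMS lines, against 4.27, 24.7 and 78.8 FPKM in unprefixed lines, and its difference was 0.45 ± 0.12 (SE, adjusted p = 0.0115). Both held under every alternative tried. The subunit gene of ADP-glucose pyrophosphorylase bt2 (GRMZM2G068506) stood at 0.022 and du1 (GRMZM2G141399), a starch synthase gene, at 0.14, both not called. Of the regulators of the storage program, ohp2 (GRMZM2G007063), a bZIP factor that pairs with opaque2, had 8.63, 13.2 and 24.7 FPKM in GEMS lines, against 9.4, 15.1 and 28.7 FPKM in unprefixed lines, with a difference of -0.20 ± 0.057 (SE, adjusted p = 0.0215), while ohp1 (GRMZM2G016150) stood at 0.37 with no call. O2 itself (GRMZM2G015534) was at 0 in the median line of both groups, with at most 0.0374 FPKM in any GEMS line and 0.153 FPKM in any unprefixed line, and was not tested.

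Further named genes differed singly. Higher in GEMS lines were Ann9 (GRMZM2G132461), an annexin that binds membranes with calcium, at 0.153, 6.84 and 33.7 FPKM in GEMS lines, against 0.224, 2.7 and 41 FPKM in unprefixed lines, with a difference of 0.74 ± 0.19 (SE, adjusted p = 0.00882), and sfp2 (GRMZM2G080178) at 0.0465, 4.38 and 16.7 FPKM in GEMS lines, against 0, 1.26 and 45.8 FPKM in unprefixed lines, with a difference of 0.86 ± 0.17 (SE, adjusted p = 4.55e-04). The locus of MIR168b, a precursor of the miRNA that targets ARGONAUTE1, had 0, 15.4 and 75.7 FPKM in GEMS lines, against 0, 6.58 and 71.6 FPKM in unprefixed lines, with a difference of 0.98 ± 0.25 (SE, adjusted p = 0.00828). These were poly(A) reads over the zma-MIR168b locus, not counts of the mature miRNA, and edgeR did not call it (adjusted p = 0.109). Lower in GEMS lines were LIM12 (GRMZM2G175761), a LIM-domain gene, at 0, 0.689 and 7.42 FPKM in GEMS lines, against 0, 1.7 and 14.1 FPKM in unprefixed lines, with a difference of -0.59 ± 0.14 (SE, adjusted p = 0.00381), and sig1 (GRMZM2G006736), a sigma factor of the plastid RNA polymerase, at 0, 0.64 and 9.0 FPKM in GEMS lines, against 0.0258, 1.31 and 10.6 FPKM in unprefixed lines, with a difference of -0.55 ± 0.15 (SE, adjusted p = 0.0133). LIM12 and sig1 stood close to 1 FPKM in both groups. MYB139 (GRMZM2G087955), a MYB factor, had 0.0277, 1.2 and 6.22 FPKM in GEMS lines, against 0.0691, 2.21 and 12.7 FPKM in unprefixed lines, with a difference of -0.49 ± 0.12 (SE, adjusted p = 0.00419). GAD (GRMZM2G017110) had 0.752, 122.5 and 214.7 FPKM in GEMS lines, against 8.85, 130.8 and 366.9 FPKM in unprefixed lines, with a difference of -0.60 ± 0.19 (SE, adjusted p = 0.0434). The medians of GAD were close to each other, and the rank-sum test did not call it (adjusted p = 0.251).

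Among families with a role in defence and detoxification, gst5 (GRMZM2G308687), a glutathione transferase gene, had 0.491, 10.6 and 322.8 FPKM in GEMS lines, against 1.15, 27.9 and 269.6 FPKM in unprefixed lines, with a difference of -0.84 ± 0.26 (SE, adjusted p = 0.0382). Of 27 glutathione transferase genes tested, limma called gst5 alone, 3.7% beside 4.25% of all genes, and DESeq2 called 2. The gst5 gene was not called by edgeR (adjusted p = 0.268). The membrane protein gene mlo8 (GRMZM5G881803) had 11.2, 19.1 and 61.1 FPKM in GEMS lines, against 10.5, 29.1 and 90.2 FPKM in unprefixed lines, with a difference of -0.44 ± 0.095 (SE, adjusted p = 0.00135). Of 13 defence genes, limma called mlo8 alone, 7.69% beside 4.25% of all genes, while edgeR called 2 and DESeq2 2. Of 20 MADS-box genes, which give floral organs their identity, limma called bde1 (GRMZM2G160565) alone, 5% beside 4.25% of all genes, with 52.7, 133.1 and 277.7 FPKM in GEMS lines, against 77.5, 168.1 and 407.2 FPKM in unprefixed lines, with a difference of -0.34 ± 0.088 (SE, adjusted p = 0.0111). The carotenoid isomerase gene CRTISO2 (GRMZM2G106531) had 0, 1.39 and 3.64 FPKM in GEMS lines, against 0.493, 1.85 and 5.99 FPKM in unprefixed lines, with a difference of -0.32 ± 0.071 (SE, adjusted p = 0.00219). Of 10 carotenoid genes, limma called CRTISO2 alone, 10% beside 4.25% of all genes, while DESeq2 called 2. In the cell cycle list, cyclin4 (GRMZM2G310115) had 14.4, 22.7 and 38.6 FPKM in GEMS lines, against 12.1, 26.5 and 49.7 FPKM in unprefixed lines, with a difference of -0.19 ± 0.054 (SE, adjusted p = 0.0226), and limma called none of the other 35 genes tested, so that 2.78% of the list was called beside 4.25% of all genes. The bde1 and mlo8 calls held under every alternative, that of CRTISO2 under each one that tested it, and cyclin4 missed the threshold on log2(CPM + 1) (adjusted p = 0.054).

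Some lists had no member past the test, beside 4.25% called among all genes, a share at which lists of this size hold few called genes or none. Among them were 36 ribosomal protein genes with a median difference of -0.028, 14 histone genes with -0.10, 16 aquaporin genes with 0.098, 9 genes of PRC2 and DNA methylation with -0.044 and 9 flavonoid genes with 0.067. The 6 fermentation and hemoglobin genes, which respond to low oxygen, had a median of -0.32, with adh1 (GRMZM2G442658) at -0.25, and again none passed. The genes with an unadjusted p below 0.05 by limma numbered 4 for ribosomal proteins, 1 for histones, 2 for aquaporins, 1 for PRC2 and DNA methylation, 0 for flavonoids and 2 for low oxygen. Of all these, edgeR and DESeq2 each called 1 gene, the hemoglobin gene Hb2 (GRMZM2G168898), lower in GEMS lines and with a limma difference of -0.66 that did not pass. A missed threshold does not show that these levels were equal.

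Only part of the markers of particular kernel cell types were expressed highly enough to be tested. Limma called none of the 8 photosynthesis, 3 embryo and 2 transfer layer genes tested, beside 4.25% of all genes. At that share lists of this size hold few called genes or none. The pollen genes were not tested, so no call was possible for them. Of 14 genes marking the transfer and embryo-surrounding layers of the endosperm, 11 were at 0 in the median GEMS line and 10 in the median unprefixed line, so most of these markers were not seen in either group. All 4 pollen beta-expansin genes were at 0 in the median line of both groups. Summed over 15 photosynthesis genes, the level was 5.52, 26.1 and 86.5 FPKM in GEMS lines, against 9.4, 27.7 and 102.6 FPKM in unprefixed lines. Summed over 9 embryo and desiccation genes it was 84.9, 1059.1 and 2372.3 FPKM in GEMS lines, against 63.9, 755.3 and 3564.7 FPKM in unprefixed lines, most of it from one dehydrin gene (GRMZM2G373522, median 1047.2 FPKM in GEMS and 699.8 FPKM in unprefixed lines), while vp1 (GRMZM2G133398) and ole1 (GRMZM2G337229) were below 0.1 FPKM in the median line of both. In each of the photosynthesis, embryo and transfer layer lists 1 tested member had an unadjusted p below 0.05 by limma, and edgeR and DESeq2 each called 1 gene of the embryo list, the globulin gene GLB1 (GRMZM2G067402), lower in GEMS lines and with a limma difference of -0.68.

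**Figure D3:**
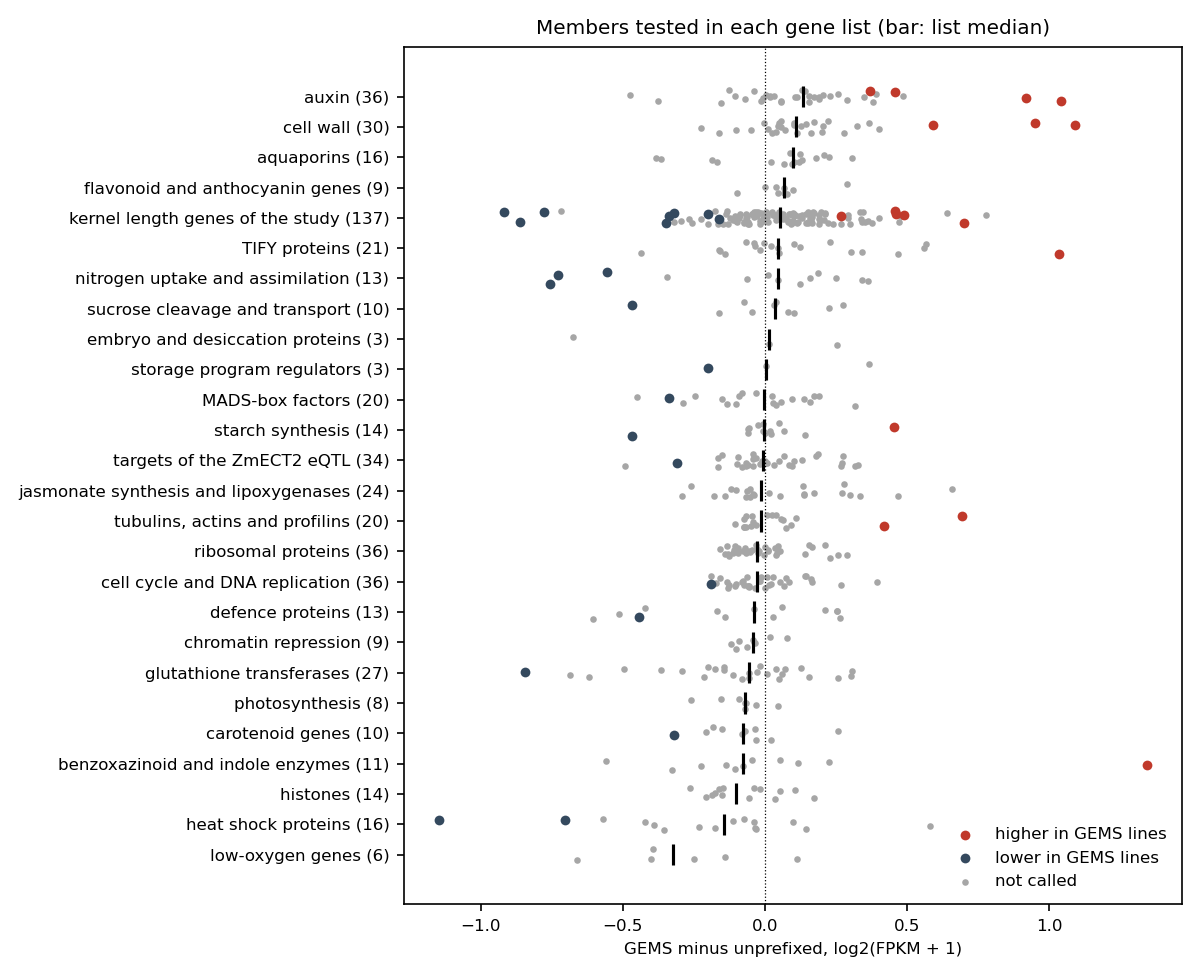
Difference of the group means (GEMS minus unprefixed, log2(FPKM + 1), horizontal axis) for each tested member of the gene lists (rows, number of members tested in brackets), with members higher in GEMS lines in red, lower in dark blue and not called in grey. Bars give list medians, at -0.32 for the low-oxygen genes and 0.14 for the auxin genes, and most members lie between -0.5 and 0.5.

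The study listed genes whose expression was associated with kernel length in this panel, so that list was chosen on these same libraries. To be listed, a gene also needed DNA variants tied to its expression and variants in it associated with kernel length. Genes tested here were not selected in these ways, so the shares below compare unlike sets. All of the listed genes were tested here. Of these kernel length genes 5 were higher and 8 lower in GEMS lines by limma, 9.49% of the list beside 4.25% of all genes. The count tests called fewer of the listed genes, 7 by edgeR and 8 by DESeq2, beside 612 and 843 of all 21112 genes tested. The list median was 0.052. GRMZM2G104730 had 0.558, 1.72 and 14.9 FPKM in GEMS lines, against 0.0193, 4.42 and 17.4 FPKM in unprefixed lines, with a difference of -0.78 ± 0.14 (SE, adjusted p = 1.96e-04). GRMZM2G136341 had 19.3, 40.8 and 80.7 FPKM in GEMS lines, against 19.5, 57.8 and 87 FPKM in unprefixed lines, with a difference of -0.34 ± 0.081 (SE, adjusted p = 0.00469). GRMZM2G180249 had 0, 0.0747 and 17.9 FPKM in GEMS lines, against 0, 4.04 and 13 FPKM in unprefixed lines, with a difference of -0.86 ± 0.21 (SE, adjusted p = 0.00512), and edgeR did not call it (adjusted p = 0.302). CFM3 (GRMZM2G436001), a splicing factor of the plastid, had 3.25, 4.31 and 6.92 FPKM in GEMS lines, against 2.97, 5.13 and 7.39 FPKM in unprefixed lines, with a difference of -0.16 ± 0.041 (SE, adjusted p = 0.0101). All 4 were lower in GEMS lines. The 5 higher ones were GRMZM2G068826, with a difference of 0.70, GRMZM2G154029, with 0.49, MYB129 (GRMZM2G070523), with 0.46, GRMZM2G130651, with 0.27, and AUX15, given above.

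Of the genes the study named singly, none passed the test. ZAG2 (GRMZM2G160687), a MADS-box gene of the ovule and kernel, had 105.97, 207.7 and 347.1 FPKM in GEMS lines, against 81.4, 213 and 497.8 FPKM in unprefixed lines, with a difference of -0.15 ± 0.071 (SE, adjusted p = 0.223). MAD2 (GRMZM2G112072), a spindle checkpoint gene, stood at -0.065 ± 0.14 (SE, adjusted p = 0.857), GRMZM2G138125 at -0.10 ± 0.085 (SE, adjusted p = 0.567), GRMZM2G099074 at 0.15 ± 0.068 (SE, adjusted p = 0.208) and GRMZM2G059580 at 0.12 ± 0.069 (SE, adjusted p = 0.344). ZmICE1 (GRMZM2G173534), a bHLH factor, had 3.25, 15 and 51.6 FPKM in GEMS lines, against 3.46, 28.1 and 87.1 FPKM in unprefixed lines, with a difference of -0.49 ± 0.17 (SE, adjusted p = 0.0656), close to the threshold. It passed with DESeq2 (adjusted p = 0.0337) and when only lines in the mapping table of the study were used (adjusted p = 0.0156). ZmECT2 (GRMZM2G144726), a homolog of an Arabidopsis reader of RNA methylation, had 8.21, 25.1 and 41 FPKM in GEMS lines, against 8.3, 24.9 and 46.3 FPKM in unprefixed lines, and its difference was 0.0012 ± 0.077 (SE, adjusted p = 0.997). Of 34 tested genes that the study tied to variation at ZmECT2, 1 was lower and 0 higher in GEMS lines by limma, 2.94% beside 4.25% of all genes, and DESeq2 called 3. The study listed these genes for older kernels than those measured here. That gene, GRMZM2G109244, had 1.61, 3.23 and 7.98 FPKM in GEMS lines, against 1.27, 3.7 and 12.7 FPKM in unprefixed lines, with a difference of -0.31 ± 0.094 (SE, adjusted p = 0.0355), and the rank-sum test did not call it (adjusted p = 0.0655).

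The smallest p-values after GAPN belonged to genes without a name. GRMZM2G078116 had 0, 2.92 and 9.05 FPKM in GEMS lines, against 0, 0.56 and 8.21 FPKM in unprefixed lines, with 71.7% of GEMS lines and 32.1% of unprefixed lines at 1 FPKM or above and a difference of 0.97 ± 0.14 (SE, adjusted p = 2.20e-06). GRMZM2G135002 had 0, 1.86 and 8.84 FPKM in GEMS lines, against 0, 0.111 and 10.6 FPKM in unprefixed lines. That gene was on in 54.3% of GEMS lines and 10.4% of unprefixed lines, and the difference was 1.0 ± 0.15 (SE, adjusted p = 3.32e-06). GRMZM2G169927, an identifier that 2 RefSeq genes carry, had 2.14, 18 and 63.5 FPKM in GEMS lines, against 2.1, 32.8 and 119.6 FPKM in unprefixed lines, with a difference of -1.16 ± 0.18 (SE, adjusted p = 6.21e-06). GRMZM2G180254 had 0.0401, 3.7 and 7.16 FPKM in GEMS lines, against 0, 0.696 and 12.9 FPKM in unprefixed lines, with a difference of 0.99 ± 0.15 (SE, adjusted p = 6.21e-06). All 4 were called by every alternative that tested them, and with a median above 5 FPKM only GRMZM2G169927 was tested.

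Some of the genes called followed each other in the order of the tested genes that could be placed. Genes not tested or not placed were left out, so other genes can lie between the neighbours named here. In the gene order of the RefSeq annotation, 14579 tested genes could be placed, 579 of them called. A called next neighbour was found for 12.1% of the called genes and for 7.54% of the others. Of the 70 called genes with such a neighbour, 49 had one called in the same direction, and this share was not tested. The longest run held 4 genes and was chosen for description after its values had been seen. GRMZM2G043119 had 2.62, 8.09 and 35.3 FPKM in GEMS lines, against 0.921, 11 and 33.1 FPKM in unprefixed lines, and was lower in GEMS lines, with a difference of -0.40 ± 0.12 (SE, adjusted p = 0.0365). GRMZM2G180205 had 4.23, 9.34 and 23.3 FPKM in GEMS lines, against 1.57, 7.87 and 23.8 FPKM in unprefixed lines, and was higher by 0.27 ± 0.086 (SE, adjusted p = 0.0435). GRMZM2G180244 had 0, 5.31 and 14.5 FPKM in GEMS lines, against 0, 1.05 and 20.8 FPKM in unprefixed lines. It was higher in GEMS lines by 1.02 ± 0.22 (SE, adjusted p = 0.00146) and reached 1 FPKM in 84.8% of GEMS lines and 50% of unprefixed lines. GRMZM2G180262 had 0, 2.13 and 10.3 FPKM in GEMS lines, against 0, 0.316 and 23.2 FPKM in unprefixed lines, and was higher by 0.72 ± 0.17 (SE, adjusted p = 0.00381), with 73.9% of GEMS lines and 28.4% of unprefixed lines at 1 FPKM or above.

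GRMZM2G180249 and GRMZM2G180254, whose identifiers are near in number to those of the run but which could not be placed, differed in opposite directions, as given above. GRMZM2G180249 was without a single count in 45.7% of GEMS lines and 20.9% of unprefixed lines. Whether any of these genes overlap was not determined. The counting did not use strand, so reads of genes that do overlap could not be told apart.

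Presence of expression was compared directly by counting lines at 1 FPKM or above. Of 12870 genes that were on in at least 5 and off in at least 5 of the lines, 390 (3.03%) were on in different shares of GEMS and unprefixed lines by Fisher's exact test, two-sided and adjusted. The share was larger among GEMS lines for 261 genes (2.03%) and smaller for the remaining 1% of the genes compared. Of the 390 genes, 162 were also called by level, and 176 had medians too low to be tested by level.

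The smallest p belonged to GRMZM2G008864, which was on in 47.8% of GEMS lines and 4.48% of unprefixed lines (Fisher's exact test, adjusted p = 1.52e-06). GRMZM2G055119 was on in 41.3% of GEMS lines and 2.99% of unprefixed lines, GRMZM2G170586 in 45.7% of GEMS lines and 5.22% of unprefixed lines, and GRMZM2G162230 in 47.8% of GEMS lines and 6.72% of unprefixed lines. These were below 1 FPKM in most lines of both groups. In the other direction GRMZM2G337594 was on in 30.4% of GEMS lines and 79.1% of unprefixed lines, and GRMZM2G365736 in 63% of GEMS lines and 97% of unprefixed lines. GRMZM2G054998 was on in 47.8% of GEMS lines and 88.1% of unprefixed lines, but its medians of 0.978 FPKM in GEMS and 1.84 FPKM in unprefixed lines lie on either side of the cutoff. GRMZM2G304121 was on in 15.2% of GEMS lines and 56% of unprefixed lines. LIM12, MYB139, CRTISO2 and hsp17.2, named above, were also on in a smaller share of GEMS lines.

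Few of the 390 genes called were off, or on, in every line of a group. How many of all 12870 genes compared were so was not counted. 4 of the genes called were on in none of 46 GEMS lines, GRMZM2G036634 with 29 unprefixed lines, GRMZM2G063392 with 24, GRMZM2G443148 with 23 and GRMZM2G062142 with 22. Genes on in no unprefixed line numbered 6, led by AC229873.1_FG003 with 8 of 46 GEMS lines. For a gene fixed beforehand, 0 lines would allow a share of up to 6.52% in GEMS and 2.24% in unprefixed lines. Those limits do not cover genes picked for having 0 lines. GRMZM2G069085 and GRMZM2G022213 were on in every GEMS line, and in 74.6% and 82.1% of unprefixed lines. GRMZM2G085711 was on in 41 of 46 GEMS lines and in every unprefixed line. These genes were singled out after their values had been seen. No gene was on in all lines of one group and off in all lines of the other.

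**Figure D4:**
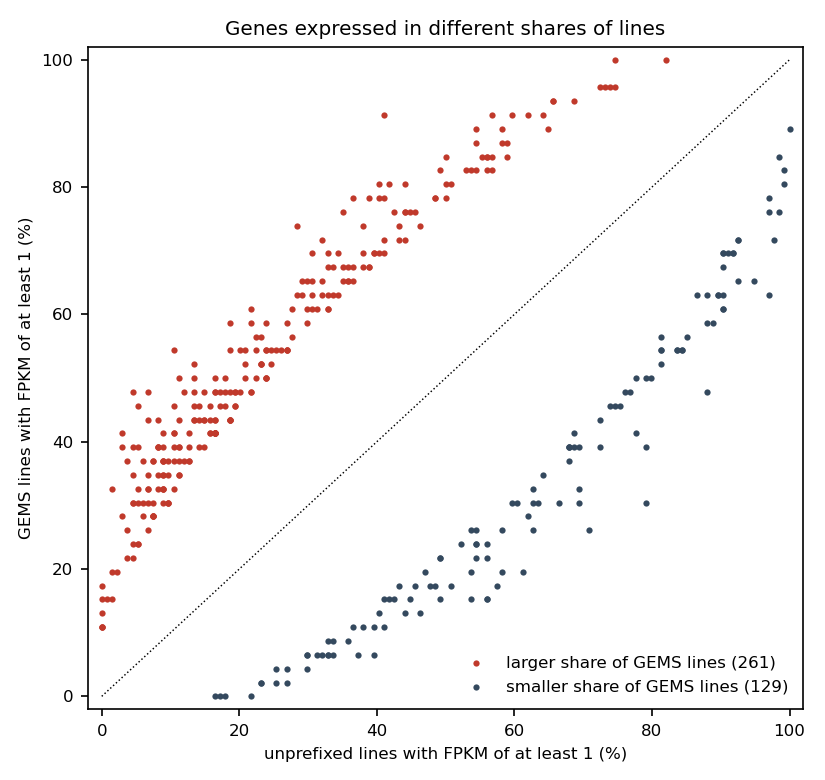
Share of GEMS lines (vertical axis, %) against share of unprefixed lines (horizontal axis, %) with at least 1 FPKM, for the 390 genes called by Fisher's exact test. The 261 genes in red lie above the dotted line of equal shares and those on in a smaller share of GEMS lines, in dark blue, below it.

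The spread between lines was compared as well. The SD of log2(FPKM + 1) was larger in GEMS than in unprefixed lines for 38.1% of the genes tested, and 100 genes (0.474%) differed in spread by the Brown-Forsythe test. Of these 49 were wider (0.232%) and 51 narrower (0.242%) in GEMS lines, and 53 were also called by level. The smallest p was that of GRMZM2G043862, with an SD of 0.60 in GEMS and 0.30 in unprefixed lines (adjusted p = 4.27e-09), from levels of 3.36, 9.85 and 18.5 FPKM in GEMS lines, against 3.81, 12.5 and 21.3 FPKM in unprefixed lines. GRMZM2G135002 and GRMZM2G365736 were also wider in GEMS lines, the first with an SD of 1.22 in GEMS against 0.75 in unprefixed lines and the second with 1.37 in GEMS against 0.76 in unprefixed lines. Presence differed for these 2 genes too. GRMZM2G135002 was on in 54.3% of GEMS lines and 10.4% of unprefixed lines, and GRMZM2G365736 in 63% of GEMS lines and 97% of unprefixed lines. GRMZM2G021514 was narrower in GEMS lines, with an SD of 0.85 in GEMS and 1.33 in unprefixed lines. For this gene 17.4% of GEMS lines and 57.5% of unprefixed lines were on, so presence differed as well as spread. GRMZM5G886006 and GRMZM2G397785 were narrower in GEMS lines too, and presence differed for both. The first was on in 82.6% of GEMS lines and 53.7% of unprefixed lines, the second in 23.9% of GEMS lines and 52.2% of unprefixed lines.

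The CIMBL and CML lines give the levels a wider frame. The same fit over the same genes called 3685 genes between GEMS and the 98 CIMBL lines (17.5%) and 2787 between GEMS and the 40 CML lines (13.2%). These comparisons share the GEMS lines and differ in group size, and their counts were not tested against each other. Over the 1000 most variable genes each line was also compared with the mean of the other lines of every group. The median r of GEMS lines was 0.751 with other GEMS lines, 0.734 with unprefixed lines, 0.701 with CIMBL lines and 0.685 with CML lines, and 34 of 46 GEMS lines were closest to the GEMS mean.

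For some genes GEMS lines had the outermost mean of the 4 groups and for others the unprefixed lines had it, and these levels are a description of genes chosen for their difference between GEMS and unprefixed lines. EREB36 had medians of 25.7 FPKM in GEMS, 4.54 FPKM in unprefixed, 4.18 FPKM in CIMBL and 1.39 FPKM in CML lines. HRGP had 637.9 FPKM in GEMS, 263.6 FPKM in unprefixed, 298.6 FPKM in CIMBL and 282.3 FPKM in CML lines, and AUX32 had 7.49 FPKM in GEMS, 1.81 FPKM in unprefixed, 1.55 FPKM in CIMBL and 0.948 FPKM in CML lines. In these genes the unprefixed, CIMBL and CML lines lay together below the GEMS lines. HSP90-1 had 209.5 FPKM in GEMS, 398.6 FPKM in unprefixed, 423.1 FPKM in CIMBL and 455.9 FPKM in CML lines, and GAPN had 13 FPKM in GEMS, 18.8 FPKM in unprefixed, 17.3 FPKM in CIMBL and 18.3 FPKM in CML lines, with GEMS lines below the rest. In the gene abp4, by contrast, the medians were 31.3 FPKM in GEMS, 16.7 FPKM in unprefixed, 30.9 FPKM in CIMBL and 32.2 FPKM in CML lines, and in ae1 33.9 FPKM in GEMS, 24.7 FPKM in unprefixed, 33.6 FPKM in CIMBL and 31 FPKM in CML lines. There the unprefixed lines were the low group, and the mean difference between GEMS and CIMBL lines was -0.35 for abp4 and 0.02 for ae1, beside 0.92 and 0.45 between GEMS and unprefixed lines. GRMZM2G079127, the gene with the largest positive difference, had 77.7 FPKM in GEMS, 2.46 FPKM in unprefixed, 43.3 FPKM in CIMBL and 60 FPKM in CML lines, and igl1 had 16 FPKM in GEMS, 2.59 FPKM in unprefixed, 10.5 FPKM in CIMBL and 8.78 FPKM in CML lines, again with the unprefixed lines lowest. GRMZM2G478779 had 0.289 FPKM in GEMS, 12.2 FPKM in unprefixed, 0.413 FPKM in CIMBL and 0.306 FPKM in CML lines, so that its level in unprefixed lines was the exception. The unprefixed lines also had the highest median of gln3, with 28.9 FPKM in GEMS, 43.1 FPKM in unprefixed, 34.6 FPKM in CIMBL and 24.3 FPKM in CML lines, and of GAD, with 122.5 FPKM in GEMS, 130.8 FPKM in unprefixed, 97 FPKM in CIMBL and 72.5 FPKM in CML lines.

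**Figure D5:**
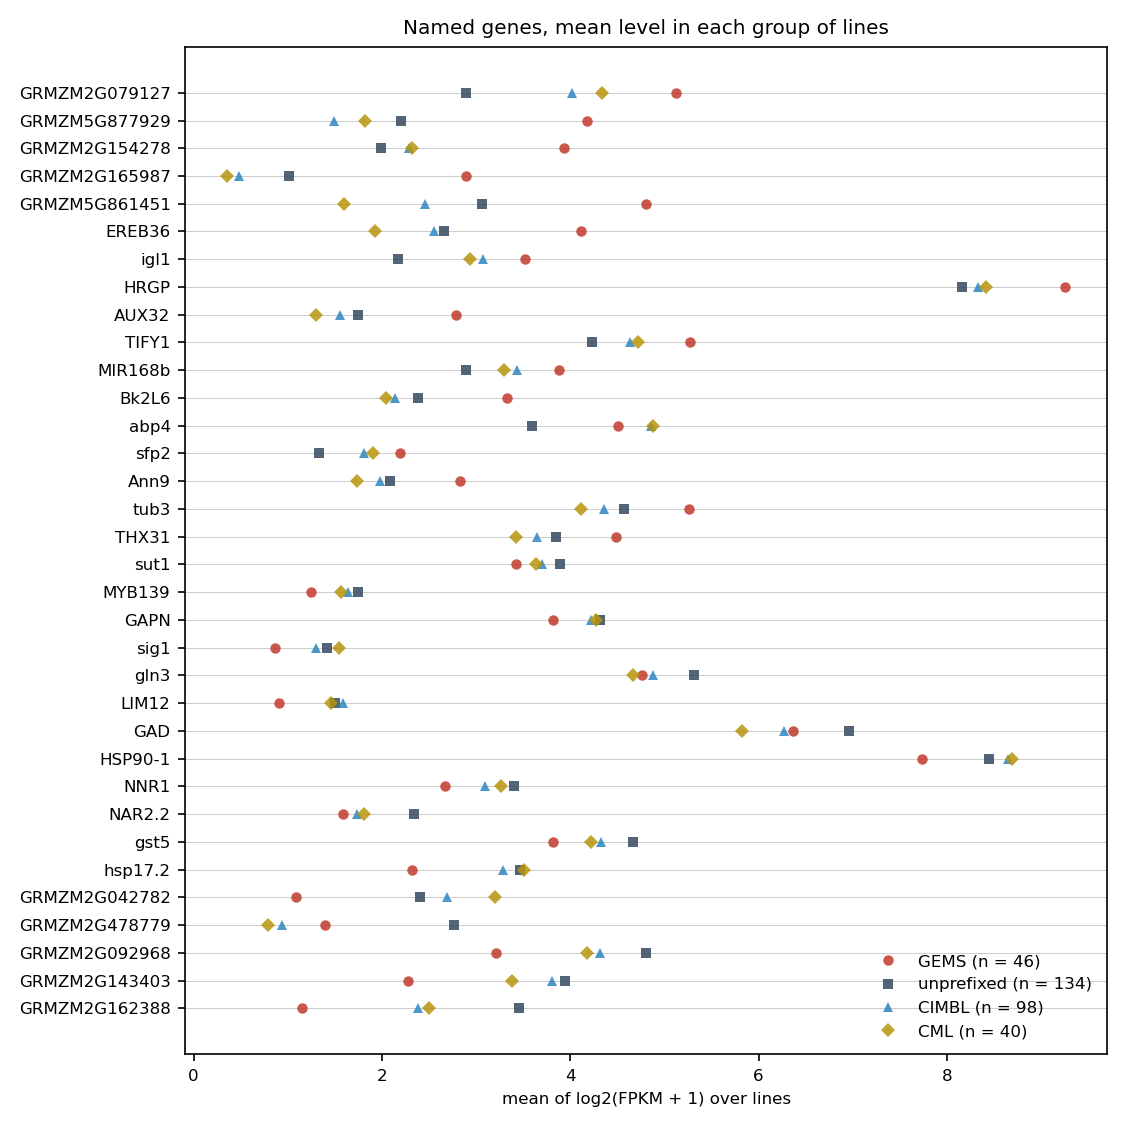
Mean of log2(FPKM + 1) over lines (horizontal axis) in GEMS (red circles), unprefixed (dark squares), CIMBL (blue triangles) and CML lines (yellow diamonds) for the 5 genes with the largest differences in each direction and the 12 named genes in each direction. Genes run from most higher in GEMS lines (top) to most lower (bottom), and in abp4, gln3 and GAD the GEMS mean lies nearer to the CIMBL and CML means than to the unprefixed mean.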

How the data were processed

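RNA of 5-DAP kernels was sequenced as poly(A) libraries, 1 per inbred line. Per the labels and the methods of the study, the authors mapped reads to B73 RefGen_v3 with TopHat2, without strand, and counted unique alignments per gene of Ensembl release 27. The deposited counts are raw whole numbers per gene, and the deposited FPKM values were made by the authors from counts normalized with DESeq2. Tool versions are not given in the sources used here. FPKM was checked here to be proportional to counts divided by median-of-ratios size factors within each gene.

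Groups were taken from line names. Differences of log2(FPKM + 1) were fitted with limma 3.58.1 (lmFit, eBayes with a trend, R 4.3.3) on GEMS and unprefixed lines, two-sided, with Benjamini-Hochberg adjustment over all genes tested at 0.05. A pseudocount of 1 understates the change of low genes. Presence was tested with Fisher's exact test, spread with the Brown-Forsythe test, and library measures with 100000 permutations of the difference in medians. edgeR 4.0.16 (quasi-likelihood, TMM) and DESeq2 1.42.0 on the counts, other filters, pseudocounts, covariates and sets of lines were alternatives. The limma fit and the presence and spread tests were tested on simulated data.

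The gene lists and the genes in them were chosen with earlier results of these data known. Lists were resolved through gene names in the RefSeq annotation of Zm-B73-REFERENCE-NAM-5.0, which matched 19060 of 39625 identifiers and gave a name for 2844, with clone and marker labels left out. It was used for names and gene order only. Genes named in the text were the 5 called genes with the largest differences in each direction, the 12 named ones in each direction, the 5 smallest p, up to 4 called members of each list, genes the study names, and the smallest p-values of the presence and spread tests, 5 and 3 in each direction. Other members of a list, the run of neighbouring genes and the genes on in no line of a group were chosen after their values had been seen.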

Additional observations from a re-analysis of the deposited data

How the results depend on the processing

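No paired analysis was possible because digits in the line names name lines and do not pair a GEMS with an unprefixed line. The 897 genes called became 1348 with no filter on low values, where 36913 genes were tested, 519 with a median above 5 FPKM, where 14702 were tested, and 1550 with the first 3 principal components as covariates. The other settings gave 612 (edgeR, with 505 of the same genes) to 1282 (only the lines of the mapping table of the study, 40 of them GEMS). Genes differing at least 2-fold, 0.327% of those tested, became 1.1% with a pseudocount of 0.1 and 0.611% with the lines of the mapping table. edgeR called 0.407% and DESeq2 0.469%, but each shared 16 genes with the 69. The cause was not tested. The 390 genes on in different shares of lines became 149 at a cutoff of 5 FPKM, and the 100 genes differing in spread became 172 with the lines of the mapping table. Of 61 called genes picked by the rules given above, with or without a gene name, 32 kept their call under every alternative that tested them. None changed sign. edgeR left 37 of 61 called and DESeq2 44. The near-zero difference of ZmECT2 (GRMZM2G144726) changed sign to -0.0066 on log2(CPM + 1), -0.0059 without lines with r below 0.6 to the mean of all lines, -0.0098 with log2 total count as covariate and -0.0088 without the 3 pairs of near-identical lines across the groups, an alternative chosen after seeing the data. With 1 library per line, the error of a single line is unknown.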
